A study of Homo sapiens with 2 samples.

Results

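The genes examined here encode the RNA polymerases and the factors that recruit them: the subunits of polymerases I, II and III, their general transcription factors, the TBP-associated factors (TAFs) and the Mediator subunits. They were chosen by name as protein-coding autosomal RefSeq genes (GRCh38.p14) whose symbols start with POLR1, POLR2, POLR3, GTF2 or GTF3, with TAF and a number from 1 to 13, or with MED and a number, together with UBTF, RRN3 and TBP. This gave 123 members of 19126 protein-coding autosomal genes. PHF8-bound DNA was mapped by ChIP-seq, the sequencing of immunoprecipitated chromatin, in RKO cells, a long-established line from a human colon carcinoma, with 1 library from cells transfected with an empty vector and 1 from cells transfected with an APOC2 overexpression plasmid. APOC2 encodes an apolipoprotein, and both libraries were made with the same lot of the PHF8 antibody. The time after transfection, and whether the cells carried the plasmid stably, were not given in the sources used here, and the peak tables hold no measure of the APOC2 level reached. There was 1 library for each condition, so replicate error is unknown, and the comparisons below describe these libraries only.

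Genes for ribosomal RNA are transcribed by polymerase I, messenger RNA genes by polymerase II, and genes for transfer RNA and 5S ribosomal RNA by polymerase III. Each polymerase has its own large subunits and a set of small subunits that it shares with the others, and TBP takes part in initiation by each of them. PHF8 is a histone demethylase whose PHD finger binds trimethylated lysine 4 of histone H3, a mark of active promoters, and it is known for acting on the promoters of both ribosomal RNA genes and polymerase II genes. The series set out to find PHF8 targets that depend on APOC2, and here the genes for this machinery are examined as such targets. A gene was counted as occupied when the midpoint of a peak lay within 1 kb of either annotated end.

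The vector library had 4015 peaks and the APOC2 library 8928. Read totals are unknown, and the steps between the pileup values put the APOC2 depth at 0.823 of the vector depth, provided that 1 control served for both tables. Over all protein-coding autosomal genes, 1183 (6.19%) were occupied in the vector library and 4715 (24.7%) in the APOC2 library. Both libraries had a peak at 1162 genes (6.08%), only the APOC2 library at 3553 (18.6%) and only the vector library at 21 (0.110%).

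The RefSeq promoter table held 99 of the 123 members. The 250 bases before a listed start are printed for the 6 members of this table with the strongest vector-library peaks. They show where the peak lay against that start, which need not be the listed start nearest to the peak. Each is written 5′ to 3′ on the strand of the gene, and capitals mark matches to the motifs named in the next paragraph. They come from GRCh38.p14: GTF3C4 from chr9:132669785-132670034 (plus strand), MED27 from chr9:132079868-132080117 (minus strand), RRN3 from chr16:15094336-15094585 (minus strand), GTF3C5 from chr9:133030747-133030996 (plus strand), GTF2H5 from chr6:158168100-158168349 (plus strand) and TAF7 from chr5:141320785-141321034 (minus strand).
GTF3C4: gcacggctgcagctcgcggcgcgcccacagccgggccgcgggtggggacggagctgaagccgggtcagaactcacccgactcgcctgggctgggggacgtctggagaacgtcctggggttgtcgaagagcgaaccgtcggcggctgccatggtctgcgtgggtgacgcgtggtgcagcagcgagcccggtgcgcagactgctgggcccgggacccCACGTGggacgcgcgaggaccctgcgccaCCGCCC
MED27: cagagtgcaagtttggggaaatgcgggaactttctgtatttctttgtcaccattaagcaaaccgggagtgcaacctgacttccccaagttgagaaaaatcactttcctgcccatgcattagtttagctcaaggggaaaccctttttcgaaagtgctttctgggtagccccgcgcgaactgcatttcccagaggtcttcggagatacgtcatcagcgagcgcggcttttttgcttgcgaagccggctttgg
RRN3: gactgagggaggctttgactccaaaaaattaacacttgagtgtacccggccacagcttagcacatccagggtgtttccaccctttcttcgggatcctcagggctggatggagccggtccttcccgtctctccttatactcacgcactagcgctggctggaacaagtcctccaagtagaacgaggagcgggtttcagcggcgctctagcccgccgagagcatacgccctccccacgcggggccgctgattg
GTF3C5: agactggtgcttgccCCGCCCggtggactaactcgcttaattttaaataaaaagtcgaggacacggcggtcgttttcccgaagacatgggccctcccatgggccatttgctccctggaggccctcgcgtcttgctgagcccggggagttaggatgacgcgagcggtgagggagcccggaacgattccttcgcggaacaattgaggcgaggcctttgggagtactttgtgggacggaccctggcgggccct
GTF2H5: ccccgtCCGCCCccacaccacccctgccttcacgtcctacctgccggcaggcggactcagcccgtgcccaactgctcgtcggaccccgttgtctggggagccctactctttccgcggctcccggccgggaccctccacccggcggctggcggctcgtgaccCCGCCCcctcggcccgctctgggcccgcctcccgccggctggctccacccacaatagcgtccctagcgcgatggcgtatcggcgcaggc
TAF7: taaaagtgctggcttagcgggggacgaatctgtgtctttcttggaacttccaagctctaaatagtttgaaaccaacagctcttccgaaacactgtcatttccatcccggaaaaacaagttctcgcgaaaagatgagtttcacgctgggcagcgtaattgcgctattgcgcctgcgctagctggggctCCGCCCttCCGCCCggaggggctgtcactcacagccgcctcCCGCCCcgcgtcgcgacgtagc
Only the stretches of GTF2H5 and GTF3C5 lay largely under a peak. Peaks of the vector library covered 136 of the 250 bases at GTF2H5 and 250 at GTF3C5, and peaks of the APOC2 library covered 250 and 242. At MED27 the peaks reached 6 (vector) and 25 (APOC2) bases into the stretch. At GTF3C4, RRN3 and TAF7 they covered 0 bases, because they lay downstream of the start. The GTF3C4 stretch precedes the listed start at 132670035, while the peaks began at 132670454 (vector) and 132670492 (APOC2). Their summits lay 176 and 160 bp downstream of another listed start, whose promoter is not printed.

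The motifs searched, on both strands, were the ETS motif CCGGAAG, the NRF1 motif GCGCATGC, the YY1 motif AAGATGGCG, the SP1 motif GGGCGG, the NFY motif CCAAT, the TATA box motif TATAAA, the E-box motif CACGTG, the E2F motif TTTCCCGC and the other E2F motif TTTGGCGC, in 300 bases from 250 before to 50 after the start. In the printed stretches GTF3C4 had 1 E-box and 1 SP1 match, GTF3C5 had 1 SP1 match, GTF2H5 had 2, TAF7 had 3, and MED27 and RRN3 had 0 matches. The number of CpG dinucleotides in them ran from 13 in MED27 to 32 in GTF3C4. Of the 41 APOC2-occupied members with a promoter entry, 19 (46.3%) had the ETS match, against 18 of 58 members (31%) occupied in neither library. Over all protein-coding genes these shares were 22.7% of 3819 and 11.4% of 11262, and over all 15101 promoters 14.3%. The TATA box stood in 1 of the 41 (2.44%) and in 7 of the 58 (12.1%), beside 4.11% and 11.8% over all protein-coding genes and 9.83% of all promoters. The SP1 match stood in 63.4% of occupied and 60.3% of unoccupied members, in 76.8% and 52.6% of all genes so divided, and in 58.7% of all promoters. Median CpG numbers were 26 in occupied and 21 in unoccupied members, against 29 and 19 over all genes. A match is a description of the letters and was not tested as a binding site.

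Of the 123 members, 15 were occupied in the vector library (12.2%, exact binomial 95% interval 6.99 to 19.3%) and 52 in the APOC2 library (42.3%, 33.4 to 51.5%), beside 6.19% and 24.7% of all protein-coding genes. All 15 vector-occupied members were also occupied in the APOC2 library, as were 98.2% of all vector-occupied genes. A further 37 members had an APOC2 peak alone, and 71 had a peak in neither library. The number of occupied members was 3.47 times as high in the APOC2 as in the vector library, and over all genes this ratio was 3.99. The members' shares were above those of all genes in both libraries. Among genes with no other gene's end within 1 kb the distance was smaller, with 5.08% of members and 4.31% of all genes in the vector library and 25.4% (15 to 38.4%) and 17.6% in the APOC2 library. When the peak itself had to overlap a gene end, the APOC2 library occupied 17.1% of members and 8.87% of all genes, and 22% and 14.6% when only peaks enriched 5-fold or more were kept. Intervals cover counting error over genes only.

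Other housekeeping complexes gave shares of the same order. Of the 44 proteasome genes, 6 (13.6%) were occupied in the vector library and 22 (50%) in the APOC2 library. For 77 mitochondrial ribosomal protein genes the numbers were 9 (11.7%) and 27 (35.1%), and for 37 aminoacyl-tRNA synthetase genes 4 (10.8%) and 13 (35.1%). All these shares lay within the intervals of the members in the APOC2 and vector libraries, and nothing here sets the transcription machinery apart from them.

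By polymerase, 6 of 12 genes of the polymerase I machinery (50%, 21.1 to 78.9%), 29 of 86 of the polymerase II machinery (33.7%, 23.9 to 44.7%) and 11 of 17 of the polymerase III machinery (64.7%, 38.3 to 85.8%) were occupied in the APOC2 library. In the vector library the numbers were 1 (8.33%, 0.211 to 38.5%), 8 (9.30%, 4.10 to 17.5%) and 4 (23.5%, 6.81 to 49.9%). The shares of all protein-coding genes were 24.7% (APOC2) and 6.19% (vector). In both libraries the intervals of polymerases I and II include these shares, and those of polymerase III lie above them. Of the 8 subunits and factors shared between polymerases, 6 were occupied in the APOC2 and 2 in the vector library. The intervals of the 3 polymerases overlapped in both libraries. Such an overlap does not decide their order, and the differences between them were not tested. The polymerase II machinery includes families with near-identical gene copies, at which short reads cannot be placed with certainty. By symbol and not by sequence, 23 members belonged to the POLR2J, GTF2H2, GTF2I and TAF11L families. Of these 23, 4 (17.4%) were occupied in the APOC2 library, and 0 of the 13 TAF11L genes, a tandem array on chromosome 5, had a peak. The part of read placement in these counts was not tested. Without the 23 genes, the vector library occupied 13 of 100 members and the APOC2 library 48. The polymerase II machinery then had 25 of 63 (39.7%, 27.6 to 52.8%) in the APOC2 library, beside 24.7% of all genes.

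**Figure D1:**
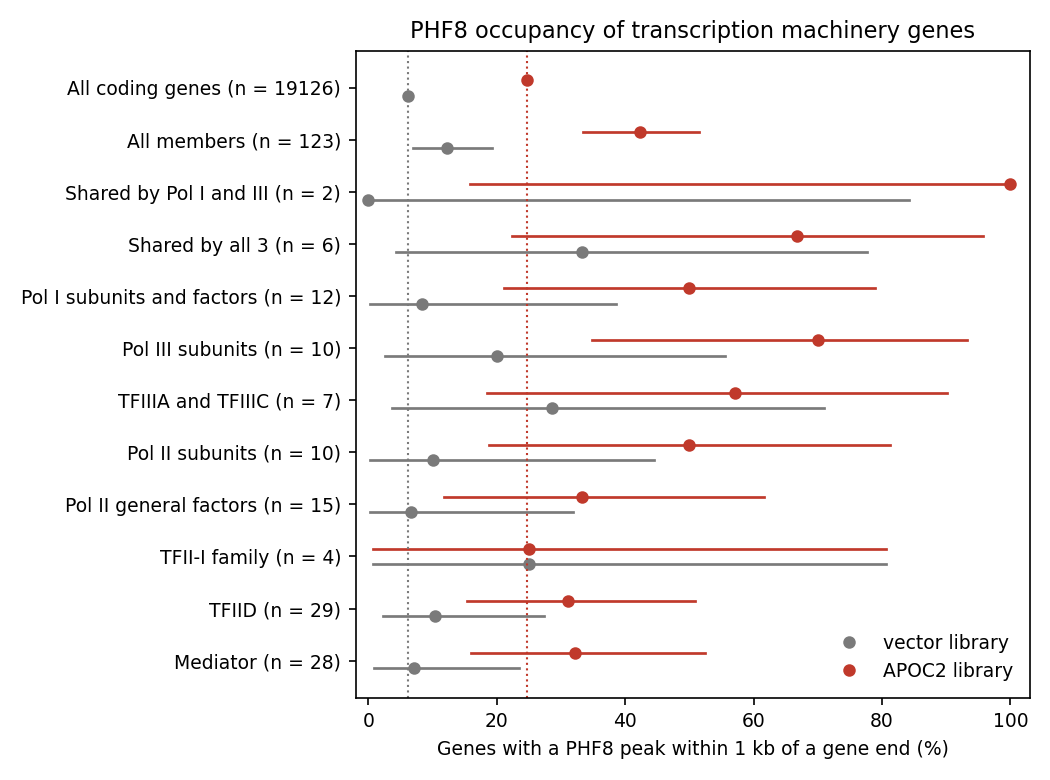
Share of genes with a PHF8 peak within 1 kb of a gene end (x axis, percent) for each group of members, for all 123 members and for all 19126 protein-coding autosomal genes, in the vector (grey) and APOC2 (red) libraries. Points are shares, bars exact binomial 95% intervals over genes, and dotted lines the shares of all genes (6.19% and 24.7%); the small groups have wide, overlapping intervals.

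Occupancy differed with the location of a gene. Of the 11 members on chromosomes 8 and 9, 6 were occupied in the vector library (54.5%, 23.4 to 83.3%) and 9 in the APOC2 library, and of the 112 members on the other autosomes 9 (8.04%, 3.74 to 14.7%) and 43 (38.4%) were. The same division held for all protein-coding genes, with 23.8% of those on chromosomes 8 and 9 and 4.70% of the others occupied in the vector library, and 40.0% and 23.4% in the APOC2 library. For the polymerase III machinery the vector share was 14.3% (2 of 14) off these chromosomes. What part these chromosomes had in the counts beyond this was not tested. In a separate division of all 123 members, 64 had an end of another gene within 1 kb of an own end. A peak there cannot be given to 1 gene. Such a neighbour stood at 12 of the 15 vector-occupied members, all but GTF2IRD2B, MED27 and TAF7, beside 719 of the 1183 vector-occupied genes. Of the 64 members, 37 (57.8%) were occupied in the APOC2 library, against 15 of the 59 members without such a neighbour (25.4%, 15 to 38.4%). Over all genes the shares were 33.7% with and 17.6% without a neighbour.

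**Figure D2:**
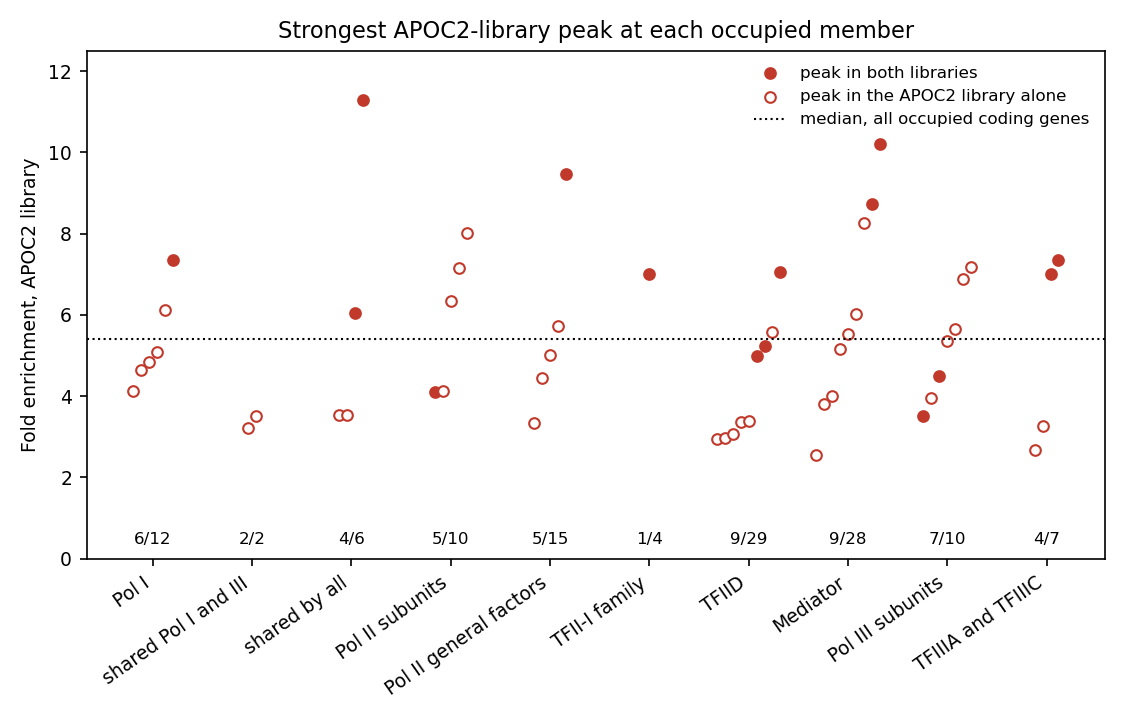
Fold enrichment over local background (y axis) of the strongest APOC2-library peak at each of the 52 occupied members, by group. Filled points had a peak in both libraries, open points in the APOC2 library alone, the fractions give occupied over all members of a group, and the dotted line is the median over all occupied protein-coding genes (5.41); POLR2K and MED27 are the highest points.

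In the polymerase I machinery, RRN3 was the gene occupied in both libraries. RRN3 (chromosome 16, 15060022 to 15094335) encodes the factor that makes polymerase I competent for initiation. Its peak lay 177 bp (vector) and 139 bp (APOC2) downstream of the nearest listed start, with a fold enrichment over local background of 6.43 (vector) and 7.36 (APOC2). The fragments stacked at the summit numbered 25 and 37. After scaling to depth the ratio of these fragment numbers was 1.80 (exact 95% counting interval 1.05 to 3.12), which compares these libraries and not the conditions. POLR1E, POLR1A, TAF1B, POLR1H and TAF1A had an APOC2 peak alone. The highest fold enrichment among them was 6.12 at POLR1E, a polymerase I subunit, and the lowest was 4.13 at TAF1A, a subunit of the promoter selectivity factor SL1, where 10 fragments made the summit. POLR1A, which encodes the largest subunit, had 5.08, at a peak at -415 bp, that is upstream of its start and on the side of its neighbour PTCD3. No peak was listed at UBTF, which encodes the upstream binding factor of ribosomal DNA, or at POLR1B, POLR1F, POLR1G, TAF1C and TAF1D.

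Among the subunits shared between polymerases, POLR2K and POLR2E were occupied in both libraries. POLR2K (chromosome 8, 100150636 to 100154003), which encodes a small zinc-binding shared subunit, had the highest fold enrichment of all members in either library, 8.26 (vector) and 11.3 (APOC2). That placed it at rank 105 of 1183 and rank 161 of 4715 occupied genes. Its summits held only 18 and 22 fragments, over local backgrounds of 1.28 and 1.03, and the depth-scaled ratio of 1.48 had a counting interval of 0.760 to 2.94. An end of FBXO43 lies within 1 kb, so the peak may belong to either gene. POLR2E (chromosome 19, 1086574 to 1095375) had 4.24 and 6.05. Its summit held 29 and 27 fragments, a depth-scaled ratio of 1.13 (0.644 to 1.98), and its local backgrounds were 6 (vector) and 3.63 (APOC2). POLR1C and POLR1D, shared by polymerases I and III, had APOC2 peaks alone with 3.22 and 3.50, as had POLR2F and POLR2H with 3.53 each. All 4 were below the median of 5.41 over all APOC2-occupied genes. POLR2L and TBP had no peak.

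Of the other polymerase II subunits, POLR2J3 was occupied in both libraries and POLR2B, POLR2C, POLR2D and POLR2J in the APOC2 library alone. POLR2J3 (chromosome 7, 102566966 to 102572583) is 1 of several near-identical copies. It had the largest pileup of all members, 100 and 133 fragments at the summit, but the smallest vector fold enrichment, 2.63, with 4.11 in the APOC2 library, because its local background was 37.0 and 31.6. POLR2C (chromosome 16, 57462679 to 57472009), which encodes a core assembly subunit, had the highest fold enrichment of the 4 genes with an APOC2 peak alone, 8.01 with 47 fragments, and POLR2J the lowest, 4.13 with 41. POLR2B, the second largest subunit, had 7.16, and POLR2D had 6.33 with 58 fragments. These values are well within the range of members occupied in both libraries, although the vector table listed no peak there. POLR2A, the largest subunit with the carboxy-terminal repeat domain, lay 47514 bp from the nearest APOC2 peak, and POLR2G, POLR2I, POLR2J2 and POLR2M had no peak at their ends either.

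Among the general factors of polymerase II, 5 of 15 genes were occupied in the APOC2 library and 1 in the vector library. These are 33.3% (11.8 to 61.6%) and 6.67%, beside 24.7% and 6.19% of all protein-coding genes. GTF2H5 (chromosome 6, 158168350 to 158199344), which encodes the smallest subunit of the TFIIH core, had fold enrichments of 5.68 (vector) and 9.47 (APOC2). Its summit held 33 and 48 fragments, a depth-scaled ratio of 1.77 (1.11 to 2.84), and its peak was 291 bp long in the vector and 711 bp in the APOC2 library. The summits lay at -287 and -238 bp, upstream of the start and toward the neighbour SERAC1, so the peak may belong to either gene. GTF2H2C, GTF2H1, GTF2E2 and GTF2A1 had APOC2 peaks alone, from 5.72 at GTF2H2C, a copy of the TFIIH subunit gene GTF2H2, to 3.34 at GTF2A1, the large TFIIA subunit. GTF2B, GTF2A2, GTF2A1L, GTF2E1, GTF2F1, GTF2F2, GTF2H2, GTF2H2C_2, GTF2H3 and GTF2H4 had no peak. In the TFII-I family, GTF2IRD2B was occupied in both libraries, with 5.21 and 7.01, and GTF2I, GTF2IRD1 and GTF2IRD2 in neither.

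Of the 16 TFIID and related TAF genes outside the TAF11L array, 9 (56.2%, 29.9 to 80.2%) were occupied in the APOC2 library and 3 in the vector library. Over all protein-coding genes the shares were 24.7% and 6.19%. TAF3 (chromosome 10, 7818505 to 8016631), whose protein has a PHD finger for the same histone mark as that of PHF8, went from the weak value of 2.86 in the vector to 4.98 in the APOC2 library, the largest log2 ratio of fold enrichment among the members, 0.80. Its 25 and 33 summit fragments gave a depth-scaled ratio of 1.6 with an interval of 0.925 to 2.81 that includes 1. TAF7 (chromosome 5, 141318490 to 141320784), a regulator of the TFIID subunit TAF1, had 5.51 and 7.06. TAF2 (chromosome 8, 119730774 to 119832841), which contacts initiator elements, had 2 vector peaks, with 5.85 and 4.95, and 1 APOC2 peak with 5.23 that overlapped the weaker of them. Its strongest peaks therefore did not overlap, and no ratio was taken. Of the 6 TAF genes with an APOC2 peak alone, TAF13 had 5.58, above the median of 5.41 over all APOC2-occupied genes. The other 5 lay below it, TAF6, TAF9, TAF4 and TAF5 between 3.39 and 2.96 and TAF10 at 2.94. The median of these 6 was 3.22, against 5.00 for all genes with an APOC2 peak alone. TAF1L, TAF4B, TAF5L, TAF6L, TAF8, TAF11, TAF12 and TAF11L2 to TAF11L14 had no peak.

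Of the 28 autosomal Mediator genes, 9 (32.1%, 15.9 to 52.4%) were occupied in the APOC2 library and 2 in the vector library. Over all protein-coding genes the shares were 24.7% and 6.19%. MED27 (chromosome 9, 131860112 to 132079867) had fold enrichments of 6.70 (vector) and 10.2 (APOC2), with 27 and 37 summit fragments and a depth-scaled ratio of 1.66 (0.986 to 2.84). MED30 (chromosome 8, 117520713 to 117540262) had 7.13 and 8.72, with 35 and 44 fragments and a ratio of 1.53 (0.957 to 2.45). Both are Mediator subunits found in animals, and both lie on the chromosomes with the high vector occupancy. MED11, MED22, MED9, MED29, MED15, MED8 and MED26 had an APOC2 peak alone. MED11, a head subunit, was the strongest with 8.26 and 21 fragments, and MED26, which binds elongation factors, the weakest with 2.56. By module, 3 of 7 head genes, 2 of 9 middle genes, 0 of 3 kinase module genes and 4 of 9 tail or unassigned genes were occupied in the APOC2 library. The unoccupied genes were MED1, MED4, MED6, MED7, MED10, MED12L, MED13, MED13L, MED16, MED17, MED18, MED19, MED20, MED21, MED23, MED24, MED25, MED28 and MED31.

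The polymerase III machinery had 4 genes occupied in both libraries. All 4 have an end of another gene within 1 kb, so their peaks may belong to either gene. These neighbours are RNF115 at POLR3C, MBLAC2 at POLR3G, DDX31 at GTF3C4, and LOC105376306 and LOC124902325 at GTF3C5. POLR3C (chromosome 1, 145824200 to 145844402) had fold enrichments of 4.34 (vector) and 4.50 (APOC2), with 26 summit fragments in each. POLR3G (chromosome 5, 90473929 to 90514557) had 4.22 and 3.52, with 30 and 23 fragments, and was the only member with overlapping peaks whose fold enrichment was lower in the APOC2 library. These encode subunits of the subcomplex that polymerase III uses for initiation. GTF3C4 (chromosome 9, 132670035 to 132694955), a TFIIIC subunit, had 6.93 and 7.01, with 48 and 41 fragments. The depth-scaled ratios were 1.21 (0.678 to 2.18), 0.931 (0.517 to 1.66) and 1.04 (0.667 to 1.61), and all 3 intervals include 1. At the 7 polymerase II genes whose strongest peaks overlapped, these ratios ran from 1.33 to 1.77, above all 3. The median log2 ratio of fold enrichment was 0.61 for those 7 genes, with 7 higher and 4 over 1.5 times higher in the APOC2 library, and 0.02 for the 3 polymerase III genes, with 2 higher and 0 past that size. GTF3C5 (polymerase III) and TAF2 (polymerase II) were left out because their strongest peaks did not overlap, although other peaks of theirs did. At GTF3C5 the upstream peaks had fold enrichments of 4.53 (vector) and 7.34 (APOC2), and the downstream peaks 5.94 and 6.65. The overlapping peaks of TAF2 had 4.95 and 5.23. The separation of the 3 polymerase III genes from the 7 polymerase II genes thus covers only strongest peaks that overlapped. The difference between the polymerases was not tested.

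GTF3C5, another TFIIIC subunit gene on chromosome 9 (133030708 to 133058503), had 2 peaks in each library, 1 on either side of its annotated start. The upstream peak had fold enrichments of 4.53 (vector) and 7.34 (APOC2), and the downstream peak 5.94 and 6.65. The stronger peak was thus the downstream one in the vector and the upstream one in the APOC2 library. POLR3K, POLR3GL, POLR3B, POLR3F and POLR3E had an APOC2 peak alone, from 7.17 at POLR3K to 3.95 at POLR3E. POLR3K had its summit at -386 bp, upstream of its start and toward SNRNP25. POLR3GL (6.88), the paralog that replaces POLR3G in part of the enzyme, had an APOC2 peak alone. The summit lay at -232 bp, upstream of its start, and 117 bp downstream of the start of its neighbour ANKRD34A. This peak may belong to either gene. GTF3C6 and GTF3C3 had 3.26 and 2.67, and GTF3C3, with a -log10 q of 1.35, was at the limit of the table. POLR3A, the largest subunit, POLR3D, GTF3A, GTF3C1 and GTF3C2 had no peak.

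Across the 13 members whose strongest peaks overlapped, fold enrichment was higher in the APOC2 library at 12 (92.3%), against 89.9% of 1100 such genes overall. It was over 1.5 times higher at 4, TAF3, GTF2H5, POLR2J3 and MED27, where 43.0% of the 1100 genes passed this size. The median log2 ratio was 0.43 (order-statistic 95% interval 0.05 to 0.64, range -0.26 to 0.80), and over all 1100 genes it was 0.52. The local background was lower in the APOC2 table at 11 of the 13 members, with medians of 5.15 and 4.17, and at 978 of the 1100 genes, with medians of 5 and 4.16. In the APOC2 table the backgrounds lay on a control step of 0.832, and the part of this scaling in the lower values was not tested. The pileup was higher at 10 of 13 members before and 12 of 13 after scaling to depth, beside 895 and 1024 of the 1100 genes. When pileup scaled to depth was compared instead, the median of the log2 ratios was 0.57 for the members and for all genes. The members' medians thus lay close to those of all such genes. The counting interval of the fragment ratio lay wholly above 1 at 3 members, RRN3, GTF2H5 and POLR2J3, and wholly below 1 at 0. This count was not made over the 1100 genes. Their median log2 ratio of depth-scaled pileup was itself 0.57, so an interval above 1 does not set a member apart from them.

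**Figure D3:**
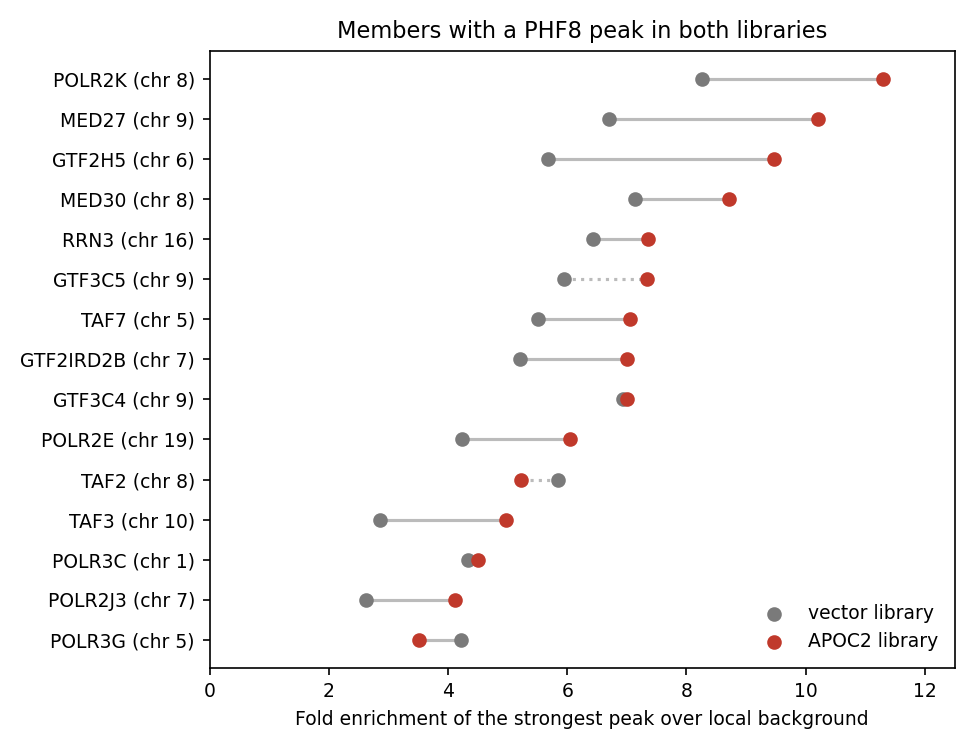
Fold enrichment (x axis) of the strongest peak in the vector (grey) and APOC2 (red) libraries at the 15 members occupied in both. Dotted connections mark GTF3C5 and TAF2, whose strongest peaks did not overlap; the red point lies to the right except at POLR3G (4.22 and 3.52) and TAF2 (5.85 and 5.23).

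**Figure D4:**
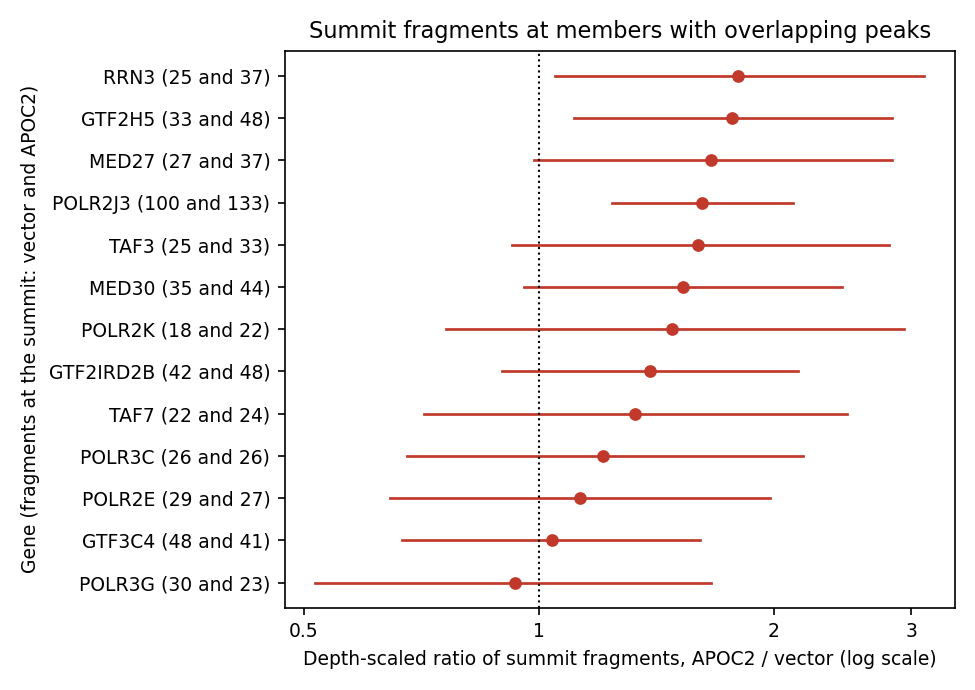
Ratio of summit fragments, APOC2 over vector, scaled by the depth ratio of 0.823 (x axis, log scale), with exact 95% counting intervals, for the 13 members with overlapping peaks; the fragment numbers stand beside each gene. Intervals clear of 1 belong to RRN3, GTF2H5 and POLR2J3. Over all 1100 such genes the median log2 ratio of depth-scaled pileup was 0.57, so a ratio of 1 is not their usual value.

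Members with an APOC2 peak alone were weaker than those with a peak in both libraries, with medians of fold enrichment of 4.45 (37 genes) and 7.01 (15 genes). Over all genes these medians were 5.00 and 7.23. Where the same number of peaks at coding-gene ends was taken from each library, the 1045 with the highest fold enrichment, the excess of occupied members in the APOC2 library was gone: the vector library then occupied 15 members and the APOC2 library 14. Of these, 9 were shared: GTF2H5, GTF2IRD2B, GTF3C4, GTF3C5, MED27, MED30, POLR2K, RRN3 and TAF7. MED11, POLR2B, POLR2C, POLR3GL and POLR3K then ranked in the APOC2 library alone, and POLR2E, POLR2J3, POLR3C, POLR3G, TAF2 and TAF3 in the vector library alone. The larger number of occupied members thus went with the larger number of listed peaks, which such a ranking removes by construction.

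The peaks sat beside the start sites. In the APOC2 library the members had 54 peaks at their ends, of which 42 were at a gene with a listed strand, and all 42 lay at the start end and 0 at the other end. All 10 such vector peaks were at the start as well. Only 21 of the 54 APOC2 peaks and 6 of the 17 vector peaks covered the annotated end itself. For the 40 members with a summit within 1.5 kb of a listed start, the median summit position in the APOC2 library was 122 bp downstream (quartiles -156 and 170 bp), and 27 summits (67.5%) were downstream. In the vector library 8 of 9 were downstream, with a median of 104 bp. Over all protein-coding genes, the median was 122 bp in the APOC2 library (3616 genes, 71.7% downstream) and 137 bp in the vector library (839 genes, 74.3% downstream). Of the 13 members with an upstream APOC2 summit, 11 had another gene's end within 1 kb, as did 17 of the 27 with a downstream summit. These are 84.6% and 63%, beside 70.4% and 54.4% over all protein-coding genes.

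**Figure D5:**
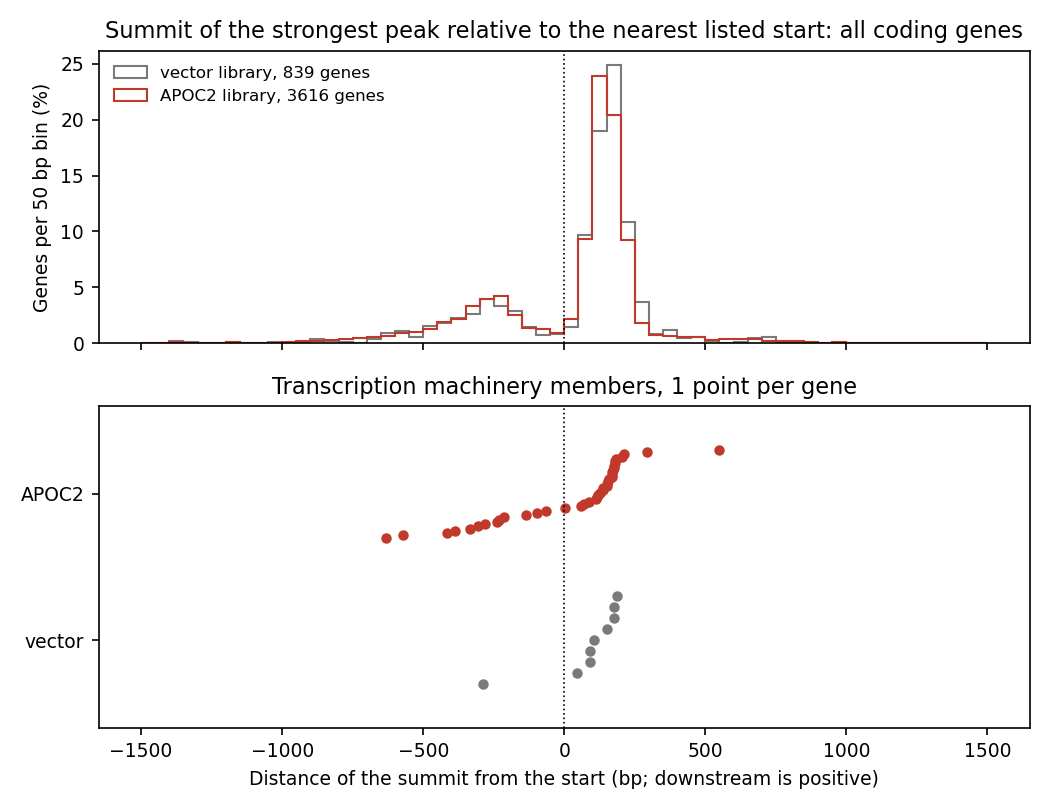
Distance of the summit of the strongest peak from the nearest listed start (x axis, bp, downstream positive). The upper panel gives the share of all protein-coding genes per 50 bp bin in the vector (839 genes) and APOC2 (3616 genes) libraries, the lower panel 1 point for each member; in the APOC2 library the member summits centre on 122 bp, with 13 of 40 upstream.

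Of the occupied members, the farthest from a peak midpoint were POLR1H at 975 bp and GTF2A1 at 792 bp in the APOC2 library, and POLR3G at 642 bp and GTF3C4 at 606 bp in the vector library. The nearest unoccupied members were MED1 at 2813 bp and GTF2F1 at 6539 bp in the APOC2 library, and MED22 at 8215 bp in the vector library. None of the 71 unoccupied members had a peak of either library inside the gene and over 1 kb from its ends. A count of 0 peaks does not show that PHF8 was absent, since the tables list only regions past the authors' threshold.

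Genes that work with this machinery but do not carry these names had similar shares. Of 47 such genes, 4 (8.51%, 2.37 to 20.4%) were occupied in the vector and 18 (38.3%, 24.5 to 53.6%) in the APOC2 library. Over all protein-coding genes the shares were 6.19% and 24.7%. The 4 with a vector peak were CDK9, CCNT1, NELFB and TCEA1, of which CCNT1 alone lies off chromosomes 8 and 9. Without these chromosomes 1 of 40 such genes (2.5%) was occupied in the vector library, against 4.70% of all genes. CDK9, the kinase of the elongation factor P-TEFb, had fold enrichments of 2.60 (vector) and 5.02 (APOC2), its cyclin CCNT1 had 4.38 and 6.24, NELFB, a subunit of the negative elongation factor, had 5.21 and 8.29, and TCEA1, the elongation factor TFIIS, had 5.11 and 7.94. Of the 21 elongation genes, 8 were occupied in the APOC2 library, among them PAF1 and SUPT5H. The PAF1 peak (5.15) is that of MED29, since these genes adjoin. In TFIIIB and SNAPc, 2 of 8 genes (BRF1 and SNAPC4) were occupied in the APOC2 library, and of the partners of TFIIH 3 of 5 (ERCC2, CCNH and MNAT1). POLRMT, the mitochondrial RNA polymerase, had an APOC2 peak of 6.29.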

How the data were processed

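PHF8 ChIP-seq was made from RKO cells with the vector (1 library) and with APOC2 (1 library), and groups follow the treatment in the labels. Per the submitters' processing notes, Bowtie2 2.2.9, MACS2 2.0 and HOMER were used on hg38. The control library, the thresholds and duplicate removal were not given in the sources used here. Peaks had been called per library. Per the file headers, the deposited tables give a pileup signal at each summit and a fold enrichment, which is the ratio of pileup to local background with 1 added to both. The deposited columns whose names were lost hold -log10 of the p-value and q-value, judged from their place and values.

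Vector pileups were whole multiples of 0.9895 (100% within 0.02), and 66% of the APOC2 backgrounds lay on a step of 0.832 (within 0.02 of a whole multiple). These steps gave whole fragments and a depth ratio of 0.823 for a common control. Depth in reads is unknown, and intervals cover counting error only, since fragments without molecular identifiers are not independent.

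Peaks were assigned to RefSeq gene ends (GRCh38.p14, of which hg38 shares the coordinates), the strongest peak per gene by fold enrichment was kept, and overlap of at least 1 bp allowed a ratio. Strand and starts came from the RefSeq promoter table, which held 15101 of 19126 genes. The members and lists were chosen with earlier results of these data known. Named genes are the members, except 1 that is not reported here, with values for each vector-occupied member and for the highest and lowest APOC2-only member of each group; the others with values were picked after these were seen. No test between conditions was possible. The assignment was tested on simulated data. Python 3.11.15, pandas 2.3.3, numpy 2.4.6 and scipy 1.17.1 were used. Alternatives covered the window, the peak threshold, equal peak numbers, the chromosomes, gene copies, neighbours and the measure of enrichment.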

Additional observations from a re-analysis of the deposited data

How the results depend on the processing

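No replicate was left out, since each condition had 1 library. No paired analysis was possible because each condition had 1 library. Shares were held against the 95% interval of the reported share, and numbers of genes against a factor of 1.5; 42 recomputed values lay outside these limits and are given below. None did with a 3 kb window, starts alone, a q-value of at most 0.001, without chromosomes 8 and 9 or without near-identical copies, and neither did any median of the log2 ratios. The settings below leave out peaks or genes by construction.

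When the peak had to overlap the gene end, members were occupied at 4.88% (vector) and 17.1% (APOC2), with 15 genes in the APOC2 library alone. Over all genes these shares were 1.52% and 8.87%, with 7.49% in the APOC2 library alone. Polymerase I genes then had 0% and 16.7% (2 alone), polymerase II genes 14% in APOC2 (8 alone), polymerase III genes 5.88% and 29.4% (4 alone), and the other machinery 12.8% in APOC2 (4 alone).

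With a fold enrichment of at least 5, APOC2 occupancy was 22% of members (17 alone), 18.6% of polymerase II (10 alone), 35.3% of polymerase III (4 alone) and 21.3% of other machinery genes (8 alone), and 2 polymerase I genes were occupied in APOC2 alone. The share of all genes was then 14.6%, and 11.4% were occupied in the APOC2 library alone.

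With equal numbers of top-ranked peaks, APOC2 occupancy was 11.4% of members (5 alone), 8.33% of polymerase I (0 alone), 9.30% of polymerase II (3 alone), 23.5% of polymerase III (2 alone) and 4.26% of other machinery genes (0 alone), beside 6.37% of all genes. Of all genes, 2.9% were then occupied in the APOC2 library alone.

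Without genes that have a neighbour's end within 1 kb, members had 5.08% (vector) and 25.4% (APOC2, 12 alone), beside 4.31% and 17.6% of all genes. Of all such genes, 13.4% were occupied in the APOC2 library alone. Polymerase I genes had 0% in the vector library (3 alone in APOC2), polymerase II genes 17% in APOC2 (5 alone), polymerase III genes 0% in the vector library (4 alone in APOC2), and 9 other machinery genes were occupied in APOC2 alone.

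Among single members, the sign of the log2 ratio reversed at GTF3C4 with pileup (-0.21) and with -log10 p (-0.14), and at POLR2E with pileup (-0.09). Pileup as deposited is not scaled to depth, and the cause was not tested further. At POLR2J3 the log2 ratio of -log10 p was 1.3, against 0.64 for fold enrichment. Summits of 10 to 133 fragments limit what can be seen at 1 gene.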

Other observations

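The X-linked genes of the same families lay outside the members. MED14, the scaffold subunit of Mediator, had an APOC2 peak alone with a fold enrichment of 4.16 and its midpoint 0.585 kb from a gene end. MED12, TAF1, TAF9B and TAF7L had no peak at their ends in either library.

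Transcribed relatives that encode no protein were also examined. Of 8 transcribed GTF2I pseudogenes, GTF2IP12, GTF2IP20 and GTF2IP13 had APOC2 peaks alone, with fold enrichments of 7.36, 5.54 and 4.83, although the parent gene GTF2I had a peak in neither library. The other 5 (GTF2IP1, GTF2IP4, GTF2IP7, GTF2IP8 and GTF2IP23) had no peak. Reads from near-identical copies cannot be placed with certainty, and their part in these peaks was not tested.

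A few members had more than 1 peak at their ends. In the APOC2 library 2 of 52 occupied members did, MED30 and GTF3C5, beside 524 of 4715 occupied genes overall. In the vector library the numbers were 2 of 15, TAF2 and GTF3C5, and 71 of 1183. These shares were not tested.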
